A study of Homo sapiens with 12 samples.

Results

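Tight junctions seal the space between neighbouring epithelial cells near their apical side. Claudins are small membrane proteins that pass through the membrane several times and polymerise into the strands of the junction, and which claudins a cell makes sets how leaky the seal is. Occludin and the junctional adhesion molecules are further membrane components, and the zonula occludens proteins are scaffolds on the inner side that tie the strands to actin. Loss of claudin transcripts is a known feature of epithelial cells that take on mesenchymal traits.

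The genes described here are 8 members of this system: the claudins CLDN1, CLDN3, CLDN4 and CLDN7, occludin (OCLN), the scaffold genes TJP1 (ZO-1) and TJP3 (ZO-3), and F11R (JAM-A). They were chosen by symbol, taking each probe set that the platform annotation gives to a single one of these symbols. In all, 7 of the 8 genes had such a probe set, 10 probe sets together (3 genes had 2 each), of 22215 probe sets and 11963 named genes analysed. F11R was not analysed here.

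The arrays measured HCC827, an established human lung adenocarcinoma line with an activating EGFR mutation, in 4 groups of 3 arrays. ERC4 cells are labelled erlotinib resistant (erlotinib blocks the kinase activity of EGFR) and were set against the parental HCC827 cells; both grew in RPMI with 5% FBS. HCC827_Esh9-1 cells (Esh9-1 below) carry a lentivirus with an shRNA against EGFR and were set against HCC827NT cells, which carry a non-target shRNA; both grew in the same medium with 5 ug/ml puromycin. ERC4 is a single resistant line and Esh9-1 by its label a single shRNA, so what is particular to that line or shRNA cannot be told apart from resistance or EGFR depletion. A resistance characteristic has the same value in all 12 samples, so groups follow the titles. Nothing in the labels says whether replicates were separate cultures. A p-value of a gene's change rests on the spread among 3 arrays per group, pooled over all 4 groups. These arrays may be technical replicates.

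All levels below are log2(intensity + 1) per array, and a gene is called where limma's Benjamini-Hochberg adjusted p over all 22215 probe sets lies under 0.05. Array medians were 5.67 to 5.75 in the ERC4 and parental arrays and 7.15 to 7.17 in the Esh9-1 and HCC827NT arrays. The arrays were therefore treated as 2 separately normalised sets, and each comparison stays within its set. Separate normalisation is read from these medians and is not stated in the sources used here. A probe set whose groups both lie under the median of its set (5.72 and 7.17) is called dim, and its fold change rests on weak signal. No detection calls were used. EGFR, the shRNA target, averaged 12.25 ± 0.09 in Esh9-1 and 13.55 ± 0.10 in HCC827NT cells (SD, n = 3 each; probe set 201983_s_at), lower by 2.46-fold, and of its other 5 probe sets 3 were lower by 4.47-fold to 6.60-fold and 2 were not called.

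The promoter windows of the claudins that fell, of occludin and of CLDN1, which rose in ERC4, are shown because repressors of epithelial genes of the ZEB and SNAI families are known to bind the E-box letters CACCTG, or CAGGTG on the other strand. They are RefSeq windows on GRCh38.p14, from 250 bases before to 50 after an annotated start, in the 5′ to 3′ direction of the gene, with E-box letters in capitals.
CLDN7 (chr17:7262429-7262728, minus strand): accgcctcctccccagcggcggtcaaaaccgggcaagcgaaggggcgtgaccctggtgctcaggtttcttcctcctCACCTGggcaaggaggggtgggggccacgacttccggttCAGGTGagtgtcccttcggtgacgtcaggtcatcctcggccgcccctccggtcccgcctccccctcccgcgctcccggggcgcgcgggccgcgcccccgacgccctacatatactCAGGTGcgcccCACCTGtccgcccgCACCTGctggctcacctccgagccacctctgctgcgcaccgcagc
OCLN (chr5:69492540-69492839, plus strand): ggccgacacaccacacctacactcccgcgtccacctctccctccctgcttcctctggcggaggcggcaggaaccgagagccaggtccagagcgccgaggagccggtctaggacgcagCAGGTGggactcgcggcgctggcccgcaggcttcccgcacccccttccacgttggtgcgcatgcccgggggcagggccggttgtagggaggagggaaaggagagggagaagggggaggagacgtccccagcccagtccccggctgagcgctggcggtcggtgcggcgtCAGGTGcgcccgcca
CLDN3 (chr7:73770221-73770520, minus strand): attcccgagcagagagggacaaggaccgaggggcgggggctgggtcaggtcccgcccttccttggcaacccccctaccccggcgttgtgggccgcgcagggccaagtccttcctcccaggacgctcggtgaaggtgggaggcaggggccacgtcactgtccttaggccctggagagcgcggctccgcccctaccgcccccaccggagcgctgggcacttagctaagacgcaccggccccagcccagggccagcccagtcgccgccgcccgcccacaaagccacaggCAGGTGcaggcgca
CLDN4 (chr7:73830746-73831045, plus strand): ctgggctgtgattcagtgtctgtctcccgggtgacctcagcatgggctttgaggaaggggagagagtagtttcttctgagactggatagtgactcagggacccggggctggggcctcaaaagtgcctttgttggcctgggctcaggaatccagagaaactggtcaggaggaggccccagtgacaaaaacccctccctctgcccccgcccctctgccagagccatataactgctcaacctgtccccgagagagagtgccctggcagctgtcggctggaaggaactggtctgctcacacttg
CLDN1 (chr3:190322397-190322696, minus strand): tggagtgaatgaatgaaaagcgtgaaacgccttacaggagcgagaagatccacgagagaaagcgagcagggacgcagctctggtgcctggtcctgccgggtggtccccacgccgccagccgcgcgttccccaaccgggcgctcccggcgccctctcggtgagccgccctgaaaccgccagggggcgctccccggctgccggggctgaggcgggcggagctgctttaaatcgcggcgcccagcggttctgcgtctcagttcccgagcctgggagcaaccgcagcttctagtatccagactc

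The CLDN7 window shown held 5 E-boxes, starting at positions 77, 116, 231, 242 and 256 counted from 1 at the window's 5′ end, and none overlapped another. Of the 35116 windows in the table, 20.6% held at least 1 E-box, 3.49% at least 2 and 33 windows (0.094%) at least 5. The other annotated CLDN7 start had none. The OCLN window shown held 2, and that of its other annotated start held 1. For CLDN7 and OCLN the window with the most E-boxes is thus the one shown. The CLDN3 window held 1, while those of CLDN4 and CLDN1 had none. Among all 13 windows of the 7 genes, 6 held the letters, in 5 genes, TJP1 and TJP3 among them with 1 each. The palindrome AACCGGTT, bound by grainyhead-like activators, was in 0.134% of all windows and in none of the members'. CLDN3 and CLDN4 are direct neighbours on chromosome 7, with 0 annotated genes between them. These matches describe letters only and show no binding.

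In ERC4 against parental cells, the strand-forming claudins moved apart. CLDN7 and CLDN4 fell strongly, CLDN3 fell slightly, and CLDN1 rose. The scaffold TJP3 was lower, TJP1 was slightly higher in its brighter probe set, and occludin was dim and not called. Of the 10 probe sets, 6 were called lower and 2 higher. Calls were frequent in this comparison, at 54.1% of all probe sets, 28.3% lower and 25.8% higher, so a call alone says little here and the sizes are given for each gene. At least 2-fold, 2 of the 10 were lower and 1 higher, where 1.52% of all probe sets were lower and 3.85% higher. The median log2 change was -0.36 over the 10 probe sets and -0.06 over all probe sets.

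CLDN7 encodes a claudin that also binds the adhesion protein EPCAM. Its levels were 6.05, 6.27 and 6.26 in ERC4 cells and 10.15, 10.05 and 10.07 in parental cells (probe set 202790_at). All ERC4 arrays lay far under all parental arrays, and the ERC4 mean was 0.50 above its own array medians, against 4.35 in parental cells. The fall was 3.90 ± 0.08 (SE) on the log2 scale, 15.0-fold (adjusted p = 3.3e-13).

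CLDN4, a claudin that restricts passage of cations, had 6.69, 6.96 and 6.48 in ERC4 cells and 8.70, 8.91 and 8.68 in parental cells (201428_at). The groups did not overlap, as in 58.2% of all probe sets. It fell by 2.05 ± 0.12 on the log2 scale, 4.15-fold (adjusted p = 4.6e-09). The 95% interval of the CLDN4 change, from -2.30 to -1.80, lay clear of that of CLDN7, from -4.08 to -3.73. A single probe set stands for each gene, and the sizes of their falls were not tested against each other.

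CLDN3, a sealing claudin, has 2 probe sets, both called lower by small amounts. The brighter (203954_x_at) had 6.84, 6.63 and 6.73 in ERC4 cells and 7.10, 7.01 and 7.08 in parental cells. The change was -0.33 ± 0.12 (adjusted p = 0.029), a call lost without ERC4 replicate 2 (adjusted p = 0.11) or 3 (0.065), without parental replicate 1 (0.071) or 3 (0.065), after median centring (0.066) and with array weights (0.056). The other (203953_s_at) gave -0.39 ± 0.12 (adjusted p = 0.012), with ERC4 replicate 2 at 6.41 and the other ERC4 arrays at 6.95 and 6.94. CLDN3 thus stayed above the array median in ERC4, by 1.05, against 1.32 in parental cells. The suffix _x_at marks a probe set that may bind related transcripts.

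CLDN1, a barrier-forming claudin of epidermis and airway, went the other way. Its levels were 6.52, 6.52 and 6.61 in ERC4 cells and 5.30, 5.23 and 5.31 in parental cells (218182_s_at). Every ERC4 array was above every parental array, and CLDN1 lay above the array median in ERC4, by 0.86, and under it in parental cells, at -0.47. It rose 2.41-fold, by 1.27 ± 0.07 (adjusted p = 6.5e-09).

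OCLN was dim in both groups, with 4.81, 5.18 and 5.15 in ERC4 cells and 5.11, 5.48 and 5.08 in parental cells (209925_at). The arrays overlapped, and the change of -0.17 ± 0.12 was not called (adjusted p = 0.23), with a 95% interval from -0.43 to 0.08. Little can be read from it, since parental cells were at -0.53 relative to their array medians.

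Of the scaffolds, TJP3 had 5.08, 4.97 and 4.89 in ERC4 cells and 5.61, 5.73 and 6.07 in parental cells (213412_at), with no overlap. It fell by 0.82 ± 0.11 on the log2 scale, and the dim probe set 35148_at fell by 0.57 ± 0.08 (adjusted p = 2e-05 and 4.3e-05). Relative to the array medians, 213412_at lay at 0.05 in parental and -0.71 in ERC4 cells, so the size of its fall also rests on weak signal. TJP1 had 8.71, 8.73 and 8.73 in ERC4 cells and 8.30, 8.45 and 8.36 in parental cells (202011_at), higher by 0.36 ± 0.07 (adjusted p = 0.00057). That call ended after quantile normalisation within the set, where the change was 0.13 (adjusted p = 0.12). The second TJP1 probe set (214168_s_at) gave 0.13 ± 0.09 and was not called (adjusted p = 0.25; interval -0.07 to 0.33).

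**Figure D1:**
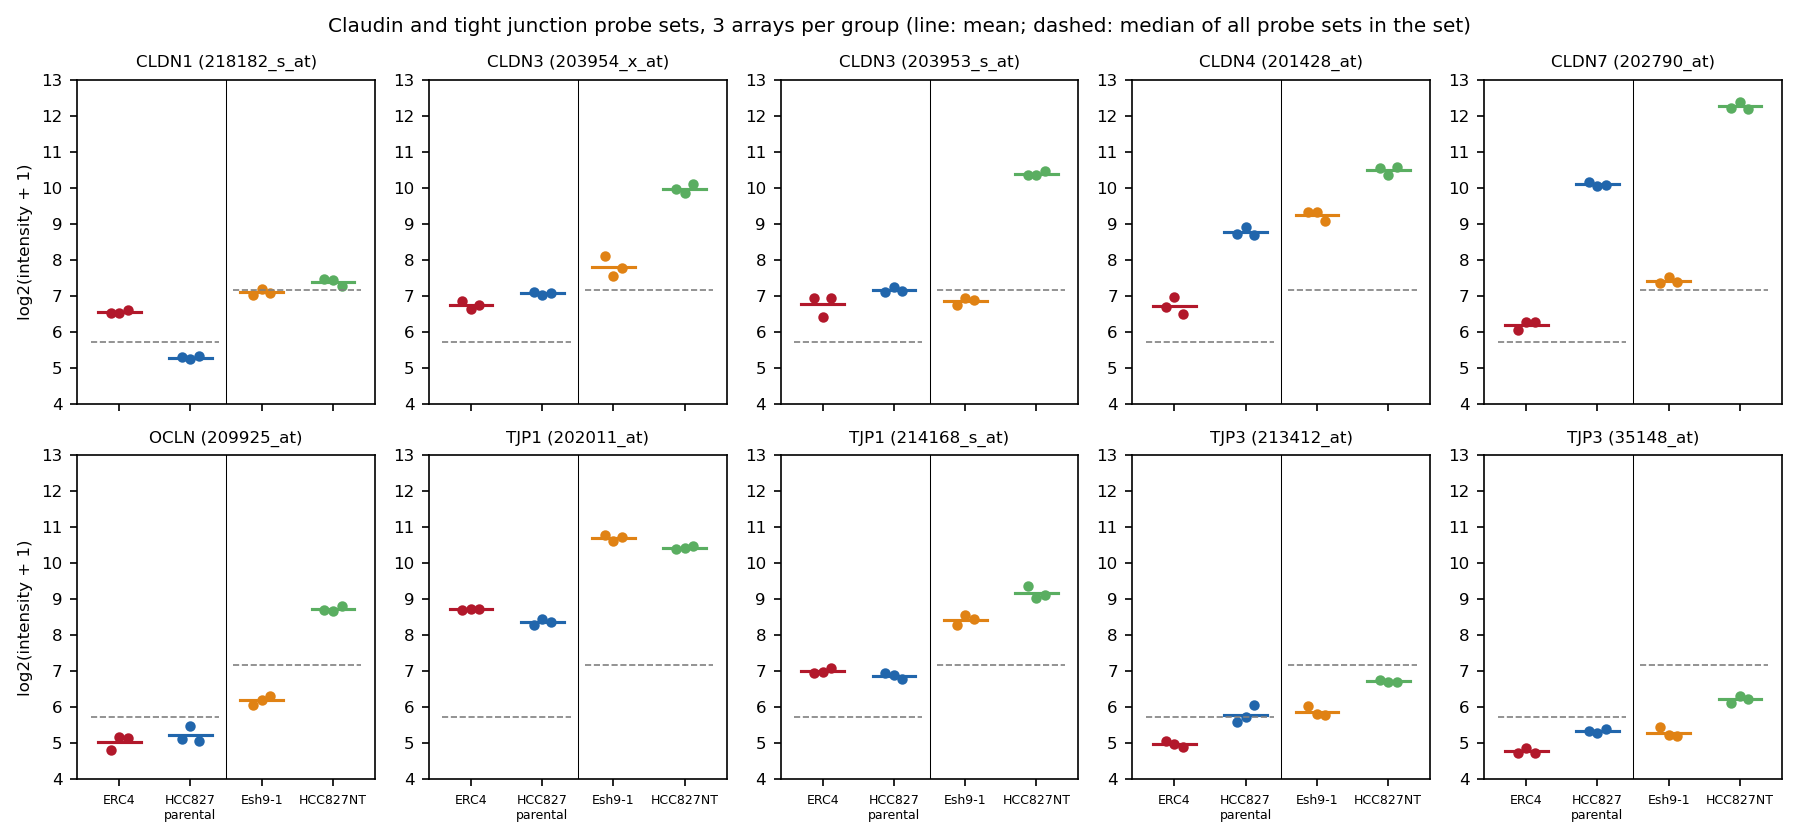
Log2(intensity + 1) of the 10 probe sets on each of the 12 arrays. A short line marks the group mean and a dashed line the median of all probe sets in the set. A vertical line parts the 2 sets of arrays. CLDN7 lies near the dashed line in ERC4 and Esh9-1 and far above it in parental and HCC827NT cells, while CLDN1 is above the line in ERC4 and under it in parental cells, and OCLN is above the line only in HCC827NT.

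In Esh9-1 against HCC827NT cells most of the 7 genes were lower. CLDN7, CLDN3, OCLN and CLDN4 fell between 2.37-fold and 28.7-fold in their leading probe sets, TJP3 was lower, CLDN1 slightly lower, and TJP1 was split between its probe sets. Of the 10 probe sets, 9 were called lower and 1 higher, where 47.4% of all probe sets were called, 24.2% lower and 23.2% higher. At least 2-fold, 5 of the 10 were lower, where 4.25% of all probe sets were lower and 4.55% higher. The median log2 change was -1.09 over the 10 probe sets and -0.03 over all probe sets.

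CLDN7 had 7.36, 7.52 and 7.37 in Esh9-1 cells and 12.22, 12.38 and 12.17 in HCC827NT cells. The gap was far wider than the spread within either group. It fell by 4.84 ± 0.08 on the log2 scale, 28.7-fold (adjusted p = 6.3e-15), to 0.24 above the array medians in Esh9-1 cells, against 5.09 above them in HCC827NT cells.

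CLDN3 fell in both probe sets, but by unequal amounts. The brighter (203954_x_at) had 8.11, 7.53 and 7.77 in Esh9-1 cells and 9.96, 9.84 and 10.09 in HCC827NT cells, a 4.47-fold fall (-2.16 ± 0.12, adjusted p = 1.2e-09). The other (203953_s_at) had 6.74, 6.94 and 6.89 in Esh9-1 cells and 10.35, 10.36 and 10.45 in HCC827NT cells, an 11.6-fold fall (-3.53 ± 0.12, adjusted p = 4.9e-12). The direction was shared, while the size depended on the probe set. In Esh9-1 cells 203953_s_at was under the array median, at -0.32, so the size of its fall rests on weak signal there.

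OCLN had 6.07, 6.21 and 6.31 in Esh9-1 cells and 8.71, 8.68 and 8.81 in HCC827NT cells. It fell 5.79-fold (-2.53 ± 0.12, adjusted p = 1.9e-10) and was under the array median in Esh9-1 cells, so the size of the fall rests on weak signal there.

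CLDN4 had 9.31, 9.33 and 9.08 in Esh9-1 cells and 10.54, 10.35 and 10.57 in HCC827NT cells. The groups did not overlap, as in 58.8% of all probe sets. It fell 2.37-fold (-1.25 ± 0.12, adjusted p = 4.2e-07) and, at 2.07 above the array medians, kept a well measured level in Esh9-1 cells. CLDN1 had 7.03, 7.19 and 7.08 in Esh9-1 cells and 7.47, 7.42 and 7.26 in HCC827NT cells, lower by a small amount (-0.28 ± 0.07, adjusted p = 0.0055).

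TJP1 gave opposite calls. Probe set 202011_at had 10.80, 10.63 and 10.72 in Esh9-1 cells and 10.39, 10.42 and 10.49 in HCC827NT cells (0.28 ± 0.07, adjusted p = 0.0034), while 214168_s_at had 8.28, 8.57 and 8.45 in Esh9-1 cells and 9.36, 9.05 and 9.13 in HCC827NT cells (-0.75 ± 0.09, adjusted p = 9.6e-06). No single direction can be given for TJP1 in this comparison. TJP3 was lower in both probe sets, by 0.85 ± 0.11 (213412_at) and 0.93 ± 0.08 (35148_at) on the log2 scale (adjusted p = 1.1e-05 and 2.1e-07), both dim here.

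**Figure D2:**
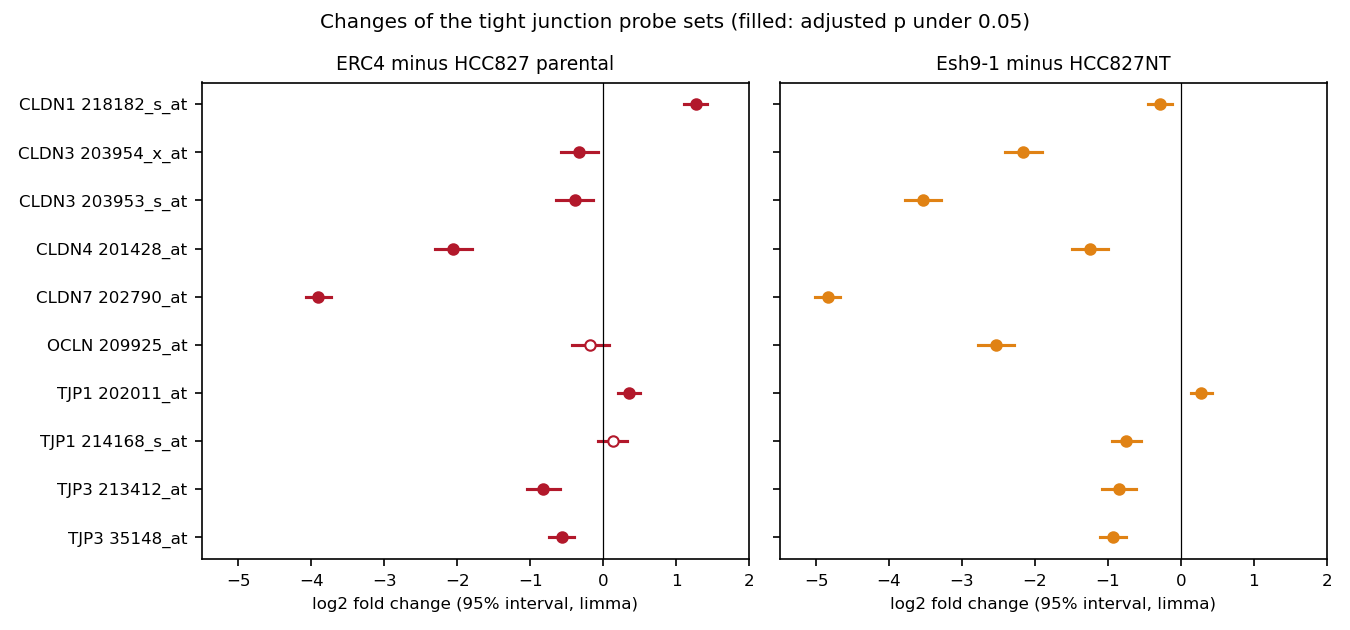
Log2 fold change of each probe set with its 95% interval, ERC4 minus parental at left and Esh9-1 minus HCC827NT at right; filled points are called. CLDN7 and CLDN4 lie left of 0 in both panels, CLDN1 lies at 1.27 in the left panel and -0.28 in the right, and OCLN lies at -0.17 in the left panel and -2.53 in the right.

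Signs of RNA quality and handling moved with these comparisons. Labelling started from an oligo-dT primer, and on the log2 scale the 3′ control probe set of ACTB exceeded the 5′ one by 0.96 to 1.24 in Esh9-1 arrays and 0.17 to 0.23 in HCC827NT arrays, and 0.17 to 0.23 in ERC4 and 0.17 to 0.28 in parental arrays. The 18S rRNA controls averaged 11.55 ± 0.68 in Esh9-1 and 6.10 ± 0.77 in HCC827NT arrays, and 6.04 ± 0.11 in ERC4 and 8.53 ± 0.56 in parental arrays (SD, n = 3 each). The 18 spiked-in hybridisation controls averaged 11.92 in Esh9-1 and 11.37 in HCC827NT arrays, and 9.48 in ERC4 and 11.04 in parental arrays. Exact two-sided permutation tests of 3 arrays against 3 cannot go below p = 0.1, which all of these but the ACTB difference between ERC4 and parental cells (exact p = 0.5) reached. Their part in the changes above, the disagreement between the TJP1 and CLDN3 probe sets included, was not tested.

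**Figure D3:**
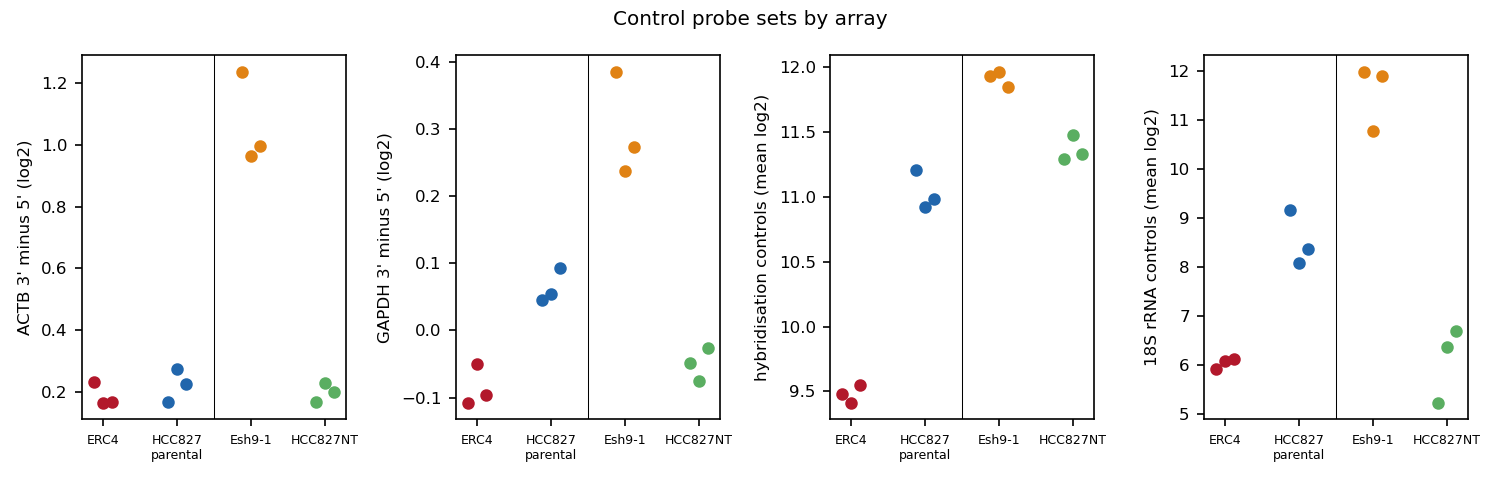
Control probe sets on each of the 12 arrays: the log2 3′ minus 5′ signal of ACTB and of GAPDH, and the mean log2 level of the hybridisation and 18S rRNA controls. The 3 Esh9-1 arrays lie at 0.96 to 1.24 for ACTB, above the other 9.

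Other epithelial markers were lower in both comparisons, while the junction genes included calls in both directions in each. All 8 epithelial identity markers examined (EPCAM, CDH1, KRT7, KRT8, KRT18, KRT19, GRHL2 and ESRP1) were called lower in both. Of all genes by their leading probe sets, 28.2% were called lower in ERC4 and 24.3% in Esh9-1. The log2 levels of the 8 markers summed to 66.5 to 67.2 in ERC4 and 82.8 to 83.0 in parental arrays. The sums were 68.8 to 69.0 in Esh9-1 and 97.4 to 97.9 in HCC827NT arrays. None was at 0, and in parental and HCC827NT cells all 8 were above the set median. Of 10 fibroblast and endothelial markers, 9 lay under the set median in ERC4, 8 in parental, 9 in Esh9-1 and 9 in HCC827NT cells, with sums of 49.0 to 49.4 in ERC4, 50.7 to 51.6 in parental, 61.3 to 61.7 in Esh9-1 and 59.7 to 59.9 in HCC827NT arrays. Of these 10, 5 were called lower and 1 higher in ERC4, and 1 lower and 1 higher in Esh9-1. Of 6 leukocyte markers, 4 were measured, and each lay under the set median in ERC4, Esh9-1 and HCC827NT cells and 3 of them in parental cells. In bulk RNA, fewer cells of a type and less RNA per cell cannot be told apart.

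Whether a gene changed by different amounts was tested as the change in ERC4 minus the change in Esh9-1, in the same limma fit. Over all probe sets 47.4% passed that test, 23.9% with the higher value in ERC4 and 23.5% in Esh9-1. Of the 10 member probe sets 7 and 1 did, and of the 7 leading ones 4 and 1. CLDN3 fell less in ERC4, by differences of 1.83 ± 0.17 and 3.14 ± 0.17 (adjusted p = 5.9e-07 and 2.3e-09). CLDN1 differed by 1.55 ± 0.11, having risen in ERC4 and fallen slightly in Esh9-1 (adjusted p = 3e-08). CLDN4 is the single member whose fall was larger in ERC4 (-0.80 ± 0.16, adjusted p = 0.001). CLDN7 differed by 0.94 ± 0.12 (adjusted p = 1.3e-05), but after the ERC4 and parental values were stretched to the spread of the other set the difference was 0.17 (adjusted p = 0.3), so its falls cannot be ranked. The mean SD of log2 values was 1.88 in the ERC4 and parental arrays and 2.25 in the other arrays, and the 2 sets share no arrays. For TJP3 the leading probe set gave 0.03 ± 0.15 (adjusted p = 0.9; interval -0.30 to 0.35), and for TJP1 0.08 ± 0.10 (adjusted p = 0.55; interval -0.13 to 0.29).

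How far a fall reflects the control cells can be seen by setting each level against its own array's median, as a description across sets with no test. OCLN was at -0.64 ± 0.22 in ERC4, -0.53 ± 0.22 in parental, -0.97 ± 0.12 in Esh9-1 and 1.57 ± 0.06 in HCC827NT cells (SD, n = 3 each). Only HCC827NT cells had occludin above the median. CLDN3 (203954_x_at) was at 1.05 ± 0.09 in ERC4, 1.32 ± 0.05 in parental, 0.63 ± 0.29 in Esh9-1 and 2.80 ± 0.12 in HCC827NT cells. Its other probe set (203953_s_at) was at 1.08 ± 0.29, 1.41 ± 0.07, -0.32 ± 0.11 and 3.22 ± 0.05 in the same order. Whether CLDN3 stayed above the median in Esh9-1 cells thus depended on the probe set. CLDN7 was high in both control groups (4.35 ± 0.05 in parental and 5.09 ± 0.11 in HCC827NT cells), and so was CLDN4 (3.01 ± 0.13 and 3.32 ± 0.12). For OCLN and CLDN3, whether Esh9-1 or HCC827NT departed cannot be told apart, as the parental arrays lie in the other set, which appears separately normalised.

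**Figure D4:**
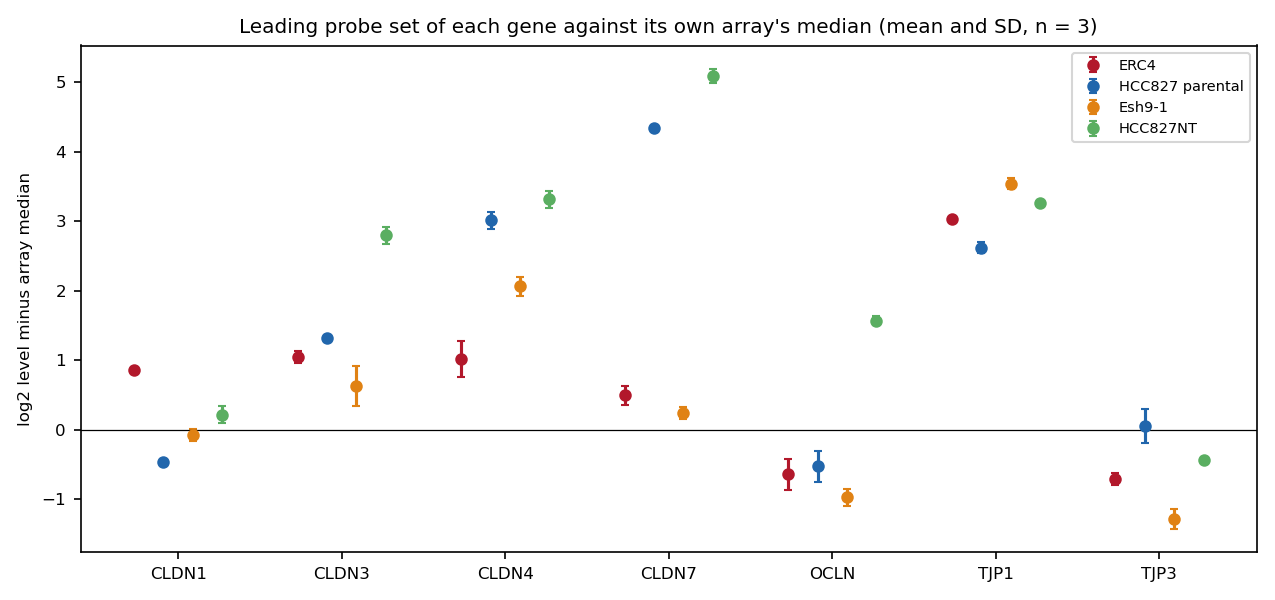
Level of each gene's leading probe set minus the median of its own array (log2 scale; mean and SD, n = 3 arrays per group), to be compared within a gene. HCC827NT alone has OCLN above 0, at 1.57, while CLDN7 is near 0 in ERC4 (0.50) and Esh9-1 (0.24) and high in parental (4.35) and HCC827NT cells (5.09).

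Of 50 further tight junction and polarity genes listed, 29 had a named probe set. In ERC4, 10 were called lower and 4 higher (28.2% and 28.6% of all genes by their leading probe sets), and in Esh9-1 8 were called lower and 3 higher (24.3% and 24.9%). Their median log2 change was -0.17 in ERC4 and -0.14 in Esh9-1, with medians of -0.04 and -0.02 over all genes. For ERC4, 11 of the 29 were dim, and for Esh9-1, 14. Among the 11 further claudins, 4 were called lower in ERC4 by limma (CLDN5, CLDN6, CLDN9 and CLDN14). In that set 7 of the 11 were dim, CLDN5 and CLDN14 among them. In Esh9-1 limma called 0 of the 11 leading probe sets, and 2 had an unadjusted p under 0.05. As 9 of the 11 were dim in the Esh9-1 and HCC827NT set, little can be read from the lack of calls there. A second, dim probe set of CLDN18 (221132_at) was called lower there (-0.29 ± 0.10, adjusted p = 0.024).

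LSR, which encodes the protein angulin-1 of junctions where 3 cells meet, fell in both comparisons. It had 6.80, 6.78 and 6.82 in ERC4 cells and 8.13, 8.44 and 8.44 in parental cells, a 2.90-fold fall (-1.54 ± 0.09, adjusted p = 9.8e-09). It had 7.33, 7.04 and 7.17 in Esh9-1 cells and 10.89 to 11.03 in HCC827NT cells, a 13.9-fold fall (-3.79 ± 0.09, adjusted p = 2.4e-13). No ERC4 or Esh9-1 array reached any array of its controls. CXADR, a junctional adhesion protein that also serves as a virus receptor, was lower by 0.56 ± 0.06 in ERC4 and 0.83 ± 0.06 in Esh9-1 on the log2 scale (adjusted p = 2.5e-06 and 2.5e-08).

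MPDZ, a scaffold with many PDZ domains that binds claudins, rose in both, by 2.06-fold in ERC4 and 3.15-fold in Esh9-1 (213306_at, 1.04 ± 0.13 and 1.66 ± 0.13, adjusted p = 1.1e-05 and 6.2e-08). Its levels were 5.70, 5.94 and 5.63 in ERC4 and 4.77, 4.97 and 4.41 in parental cells, and 8.81, 8.86 and 8.79 in Esh9-1 and 7.36, 7.01 and 7.11 in HCC827NT cells. The other MPDZ probe set (205079_s_at) was called in Esh9-1 (0.78 ± 0.09, adjusted p = 6.8e-06) but not in ERC4 (0.22 ± 0.09, adjusted p = 0.06). The call in ERC4 thus rests on 213306_at alone, with means of 5.76 in ERC4 and 4.71 in parental cells. The set median was 5.72, so its signal was weak. PALS1, a scaffold of the Crumbs polarity complex, rose 2.26-fold in ERC4 (1.18 ± 0.10, adjusted p = 2.6e-07) and gave 0.12 ± 0.10 in Esh9-1 (adjusted p = 0.35). CLDN6, a claudin known from embryonic epithelia, fell 2.38-fold in ERC4 (-1.25 ± 0.10, adjusted p = 1.1e-07) and gave -0.23 ± 0.10 in Esh9-1 (adjusted p = 0.065).

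YBX3, a transcription and RNA-binding factor that ZO-1 holds at the junction, rose 2.74-fold in Esh9-1 (201161_s_at, 1.46 ± 0.08, adjusted p = 7.7e-10). Its levels were 12.86, 12.85 and 12.76 in Esh9-1 and 11.20, 11.47 and 11.44 in HCC827NT cells. In ERC4 its 3 probe sets disagreed, at 0.19 ± 0.08 (adjusted p = 0.044), 0.89 ± 0.08 (201160_s_at, adjusted p = 2.6e-07) and -0.69 ± 0.07 (213319_s_at, adjusted p = 1.5e-06), so no direction can be given there.

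**Figure D5:**
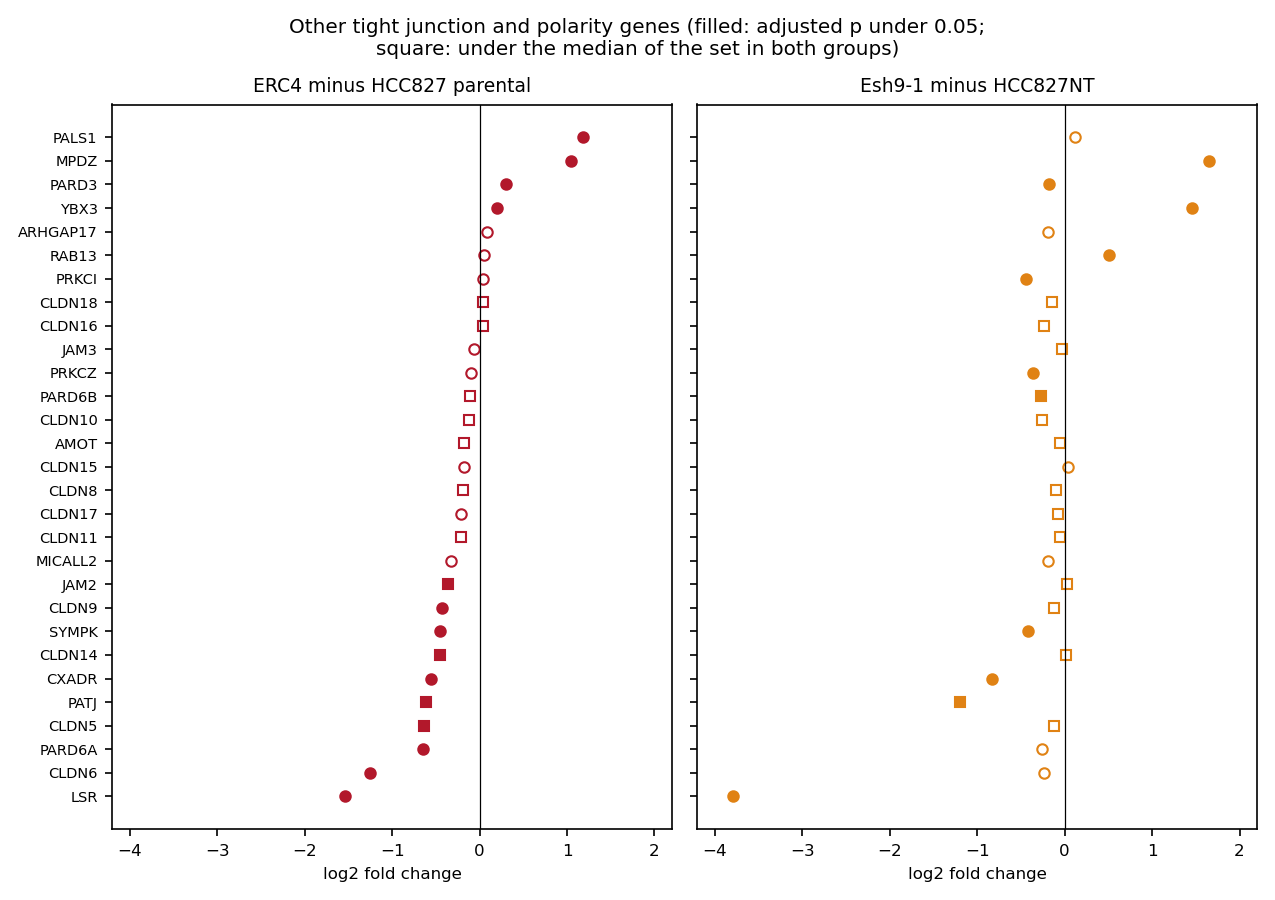
Log2 fold change of the 29 further tight junction and polarity genes, ERC4 minus parental at left and Esh9-1 minus HCC827NT at right; filled symbols are called and squares are dim. LSR lies farthest left in both panels, at -1.54 and -3.79, and MPDZ is among the genes farthest right in both, at 1.04 and 1.66.

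Regulators known to act on claudin genes had these changes. ZEB1, a repressor that binds E-boxes, rose 2.94-fold in ERC4 and 3.42-fold in Esh9-1 (212758_s_at, 1.55 ± 0.15 and 1.77 ± 0.15, adjusted p = 1e-06 and 1.6e-07). The test of the difference did not call that probe set (-0.22 ± 0.21, adjusted p = 0.42). A second ZEB1 probe set (212764_at) rose 3.84-fold in ERC4 and 13.7-fold in Esh9-1 and differed between them (-1.83 ± 0.12, adjusted p = 1.6e-08), and the dim 210875_s_at rose 1.56-fold and 2.82-fold (difference -0.86 ± 0.25, adjusted p = 0.011). The size of the ZEB1 rise thus depended on the probe set. Parental and HCC827NT means lay under the set medians for 212758_s_at (4.84 and 6.12) and 212764_at (3.78 and 5.38), so these sizes rest on weak signal there. GRHL2, an activator, fell 3.33-fold in ERC4 and 7.36-fold in Esh9-1 (adjusted p = 1.3e-08 and 2e-11). Its means of 4.53 in ERC4 and 5.71 in Esh9-1 cells lay under the set medians, so the sizes rest on weak signal there. The repressors SNAI2 and ZEB2 rose in Esh9-1, by 2.59 ± 0.13 and 2.87 ± 0.15 on the log2 scale (adjusted p = 4.1e-10 and 9.5e-10), and were not called in ERC4 (0.28 ± 0.13 and -0.11 ± 0.15, adjusted p = 0.079 and 0.58). ZEB2 was dim in both sets and SNAI2 in the ERC4 and parental set. The repressor SNAI1 was lower in ERC4 (219480_at, -0.49 ± 0.10, adjusted p = 0.00063) and gave 0.15 ± 0.10 in Esh9-1 (adjusted p = 0.22), where it was dim.

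Genes with the most similar pattern were found by Pearson's r over the 12 arrays, after each set was centred, among 6601 genes not dim in either set. With 2 steps between groups such values are high for many genes, and 221 genes passed 0.95 for CLDN7 and 83 for CLDN4. Nearest to CLDN7 were TMPRSS11E, SDC1 and SPRR1B (r = 0.9991, 0.9986 and 0.9982). Nearest to CLDN4 were LITAF, SPINT2 and GALNT3 (0.9895, 0.9889 and 0.9888), nearest to CLDN3 were ERBB2, ALDOC and AHNAK2 (0.9914, 0.9884 and 0.9877), and nearest to OCLN were TRIB1, PLSCR1 and PERP (0.9963, 0.9931 and 0.9929). CLDN1 was nearest to DBF4, GYG1 and PAXBP1 (0.9933, 0.9856 and 0.9852), TJP1 to NDUFS7, C6orf62 and BABAM1 (0.9853, 0.9851 and 0.9824), and TJP3 to CNKSR1, FMOD and TNFRSF25 (0.9797, 0.9778 and 0.9745). ERBB2, the nearest to CLDN3, had log2 changes of -0.17 in ERC4 and -2.20 in Esh9-1, and TMPRSS11E, the nearest to CLDN7, had -3.27 and -4.23.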

How the data were processed

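Transcript levels were measured on 12 arrays, 3 in each of 4 groups. The deposited values are intensities on a linear scale, made by the authors with RMA per the submitters' processing notes; which RMA version, and on which arrays jointly, is not given in the sources used here. Controls (62 probe sets) were left out, which left 22215. Symbols came from the platform annotation: of 22277 probe sets, 19070 had 1 symbol, 1043 several and 2164 none. A gene's leading probe set has the highest mean over 12 arrays. Values were taken to log2(value + 1), which understates changes of dim genes, and tested two-sided in R 4.3.3 by limma 3.58.1, whose lmFit and eBayes steps took all 4 group means together with 8 residual degrees of freedom. Calls used an adjusted p under 0.05. A simulation of 22215 probe sets held few planted log2 changes for each comparison: 80 of size 0.5, 80 of size 1 and 40 of size 2. For sizes 0.5 and 1, recovery was 77.5% and 98.8% in ERC4 minus parental, and 58.8% and 100% in Esh9-1 minus HCC827NT. The data had far more calls, 12009 in ERC4 and 10536 in Esh9-1, and the adjusted p depends on how many probe sets change. These recovery rates therefore do not carry over to the data.

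Members and lists were chosen with earlier results of these data known. Named were all member probe sets, listed genes called at least 2-fold and not dim (up to 10 per comparison), the 3 genes most like each member, EGFR and known regulators; CXADR and the further probe sets of named genes were added after their values were seen. Protein sequences were not used here. Other settings tried were a replicate block, fits of 6 arrays, a trended and a robust eBayes, weights per array, no pseudocount, normalisation, stretching, dim probe sets, 1 probe set per gene, a threshold of 0.01 and each array left out. The number of arrays limits the precision.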

Additional observations from a re-analysis of the deposited data

Results flagged for a closer look

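These results differed between the ERC4 and Esh9-1 comparisons by limma's test of the difference itself, given as the log2 change in ERC4 minus that in Esh9-1 (23.9% and 23.5% of all probe sets passed it in either direction). Among the claudins, the difference was 1.55 for CLDN1 218182_s_at, 1.83 for CLDN3 203954_x_at, 3.14 for CLDN3 203953_s_at, -0.80 for CLDN4 201428_at and 0.94 for CLDN7 202790_at. It was 2.36 for OCLN 209925_at, which is dim in ERC4 and parental cells, 0.88 for TJP1 214168_s_at and 0.36 for TJP3 35148_at. Among the other junction genes it was -1.02 for CLDN6, 2.26 for LSR, -0.61 for MPDZ, 1.06 for PALS1 and -1.26 for YBX3. The sets appear to have been normalised separately, as read from their array medians. Rescaling ERC4 and parental values to the wider spread of the Esh9-1 and HCC827NT arrays ended the difference for CLDN7 (0.17, adjusted p = 0.3), MPDZ (-0.41, adjusted p = 0.13) and TJP3 35148_at (0.25, adjusted p = 0.11). Quantile normalisation over 12 arrays also ended it for MPDZ (-0.16, adjusted p = 0.57) and TJP3 35148_at (0.23, adjusted p = 0.13), and neither passed at an adjusted p under 0.01.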

How the results depend on the processing

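Of 45 single values tested, 36 kept their side of the threshold under every alternative run, and 0 called values changed sign. Values that were not called could cross 0. The difference ran from -0.15 to 0.15 for TJP1 202011_at and from -0.17 to 0.16 for TJP3 213412_at. With 1 probe set per gene, fewer probe sets were tested. Those called lower and higher then numbered 3449 and 3453 in ERC4, against 6285 and 5724. They numbered 2944 and 3022 in Esh9-1, against 5374 and 5162, and 2883 and 3053 for the difference, against 5230 and 5311. Member probe sets with the higher difference were then 4, against 7. Without dim probe sets, 3476 probe sets were lower in ERC4 and 5456 higher, against 6285 and 5724. The dim probe sets left out thus held more of the lower than of the higher calls. Listed tight junction genes called lower were then 6 in ERC4 and 5 for the difference, against 10 and 8. CLDN5, CLDN14, JAM2 and PATJ, called lower in ERC4, were dim in both sets and so were left out. After quantile normalisation, within each set or over 12 arrays, 1 member probe set was higher in ERC4, against 2, and 2 listed genes, against 4. Over 12 arrays 3 listed genes had the higher difference, against 6. The cause was not tested. At an adjusted p under 0.01, 4 listed genes had the lower difference, against 8. Leaving out each array gave 5 to 6 member probe sets lower in ERC4 and 9 in Esh9-1, and array weights gave 5 and 9.

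Replicate numbers gave no sign of pairing the samples. This was judged by correlating each array's deviations from its group mean between the 2 groups of a comparison. Between ERC4 and parental cells, same-numbered arrays gave 0.01 to 0.07 and other pairs -0.07 to 0.05. Between Esh9-1 and HCC827NT cells, same-numbered arrays gave -0.14 to -0.03 and other pairs -0.05 to 0.14. With the number as a block, 5990 probe sets were lower and 5517 higher in ERC4, and 5179 and 5035 in Esh9-1. Member probe sets called were unchanged in number (6 and 2 in ERC4, 9 and 1 in Esh9-1). The call for YBX3 201161_s_at in ERC4 ended in 16 of 24 alternatives, the block among them (adjusted p = 0.076).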
